A study of Mus musculus with 40 samples.

Results

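The radial glia and astrocyte identity genes examined here are 10 protein-coding genes with known roles in glia. They comprise a lipid-binding protein (Fabp7), a secreted chaperone (Clu), both glial glutamate transporters (Slc1a3 and Slc1a2), a gap junction protein (Gja1), a pair of receptors (Fgfr3 and Cd44) and 3 transcription factors of gliogenesis (Sox9, Nfia and Nfib). They were listed by name, with earlier results of these data known, and found through their Ensembl identifiers, and they make up 10 of the 55487 genes in the count table. Radial glia are the progenitors that first give rise to neurons and later, after a switch to gliogenesis, to astrocytes. Sox9 and the nuclear factor I proteins Nfia and Nfib act early in this switch, whereas glutamate transporters and connexin 43 serve the uptake of glutamate and the coupling of astrocytes into networks. Fabp7 is abundant in radial glia and immature astrocytes, and Gfap and Aqp4 are widely used to recognise maturing and mature astrocytes.

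The study derived astrocytes and motor neurons, called ES-astrocytes and ES-motor neurons, from 1 mouse embryonic stem cell line from B6.Cg-Tg(Hlxb9-GFP)1Tmj/J mice, in which the Hb9 (Hlxb9) promoter drives green fluorescent protein, and asked how inflammatory stimuli of the astrocytes affect both. Differentiation used retinoic acid and a smoothened agonist, the glial progenitors were expanded with fibroblast and epidermal growth factors, and forskolin was used for their maturation. ES-astrocytes were left unstimulated or were exposed for 24 h to IL-1α with TNF-α, to the complement components C1Q and C5, to IL-1β with IL-6, or to TGF-β2, and ES-motor neurons sorted for their fluorescence were placed on top of them. RNA was then sequenced from about 200 sorted cells per sample, with 4 replicates (A to D) in each of 10 groups, or 40 libraries. The ES-motor neurons themselves were labelled by the stimulus of the culture they came from. A biological replicate was a separate vial of cells at a given passage, so p-values measure the spread between vials of a single line. Both cell types were sorted from co-cultures, and the labels did not say whether libraries of 1 letter shared a culture. The main fits treated all libraries as independent. The control and IL-1α + TNF-α libraries shared 1 plate index and the other 3 stimuli shared another, so plate and stimulus cannot be told apart for TGF-β2, IL-1β + IL-6 and C1Q + C5 against control. The second sequencing index also differed between the cell types in every library.

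Depth differed strongly between the cell types. The ES-astrocyte libraries held 1510823 to 16054290 counts, with a median of 4670241.5, and the ES-motor neuron libraries held 6557 to 19717324, with a median of 1213482. In total 9 libraries had under 20% of the overall median, all of them from ES-motor neurons, including all 4 of the IL-1α + TNF-α group. The smallest, ES-motor neuron C1Q + C5 replicate A, had 6557 counts and held no read of any of the 10 genes. Levels are given as CPM, reads of a gene scaled to the size of the library, after scaling all 40 libraries together. The level that 3 counts stand for ranged from 0.230 to 2.04 CPM among ES-astrocyte libraries and from 0.153 to 202 CPM among ES-motor neuron libraries, and a value of 0 was read against these floors. Floors and intervals cover counting error only, as no molecular identifiers were named. In these bulk samples, fewer cells of a type and less RNA per cell cannot be told apart.

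The labels of the cell types were first read against marker lists. The list for maturing and mature astrocytes held 20 genes, of which Gfap, Aqp4, Aldh1l1, Gjb6, Ntsr2 and Agt were at 0 counts in all 20 ES-astrocyte libraries. Over those libraries together, 0 counts allowed a level of up to 0.0256 CPM. The summed level of this list was 117 ± 56.6 CPM in control ES-astrocytes and 50.8 ± 37.2 CPM in control ES-motor neurons (SD, n = 4 each), and its most abundant gene in both was Glul, glutamine synthetase. Markers of radial glia and neural progenitors (18 genes) summed to 3040.0 ± 1754 CPM in control ES-astrocytes and 882 ± 148 CPM in control ES-motor neurons, with Msi1, an RNA-binding protein of progenitors, as the most abundant in the former. At the RNA level, the 6 mature astrocyte markers at 0 named above did not bear out the label astrocyte. The other genes of that list each had counts in at least 1 ES-astrocyte library. The summed level of the list was higher on average in control ES-astrocytes than in control ES-motor neurons, with Glul at 72.5 CPM in the former. With C1Q + C5 it was lower in ES-astrocytes, at 67.5 against 82.5 CPM. It was higher in them with IL-1α + TNF-α (72.8 against 33.4 CPM), IL-1β + IL-6 (82.0 against 41.6) and TGF-β2 (42.9 against 39.4). The study rested the label on other evidence as well. It reported the proteins of Gfap, Aqp4 and Slc1a2 by staining of ES-astrocyte cultures, which RNA counts do not measure. It also reported higher RNA of Slc1a3, Fabp7, Fgfr3, Slc1a2 and Cd44 than in ES-motor neurons. ES-astrocytes is used here as the study's name for these cells. Neuronal markers (14 genes) summed to 4005 ± 894 CPM in control ES-astrocytes and 17339.8 ± 2219 CPM in control ES-motor neurons. Motor neuron markers (12 genes) summed to 307 ± 105 and 2950.4 ± 820 CPM, with Mnx1, the Hlxb9 gene itself, the most abundant in ES-motor neurons. Markers of pluripotent cells (8 genes), endothelial cells (8 genes), ependymal cells (6 genes) and microglia (10 genes) summed to at most 5.20 CPM on average in either control group, and Pou5f1, Cdh5 and Ptprc were at 0 counts in both.

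**Figure D1:**
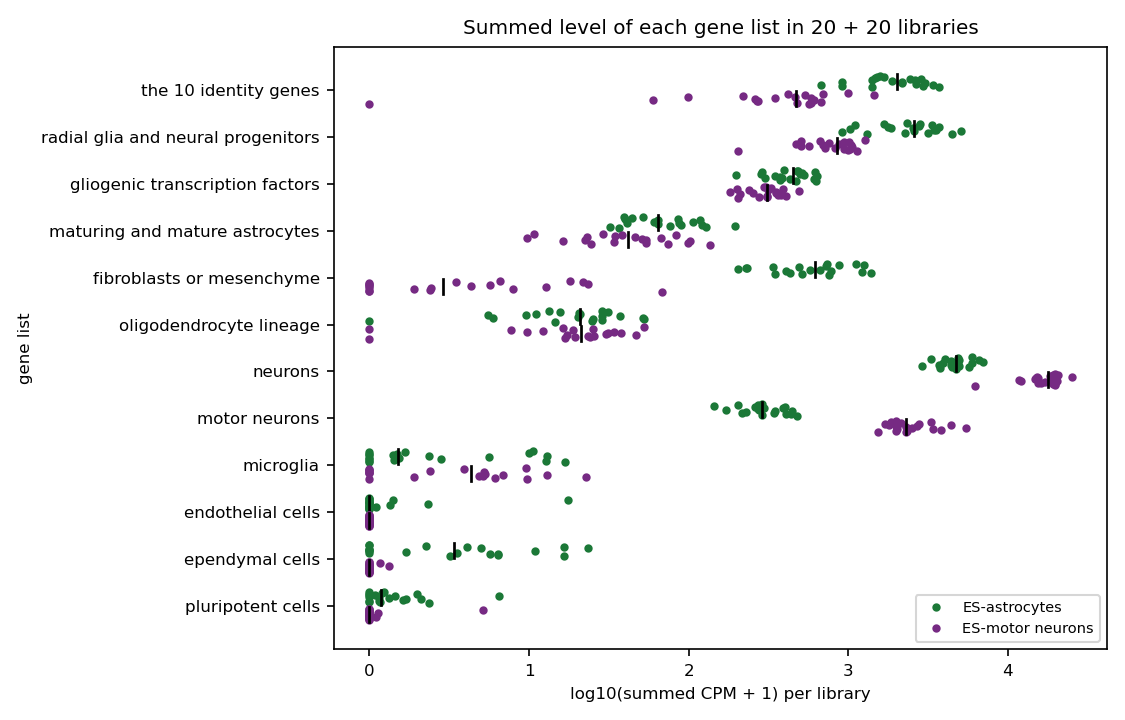
Each point is the summed CPM of a gene list in 1 library on a log10(CPM + 1) axis, in green for the 20 ES-astrocyte and in purple for the 20 ES-motor neuron libraries, and black bars are medians. The 10 identity genes had a median sum of 2033 CPM in ES-astrocytes, against 470.1 CPM in ES-motor neurons.

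One control library stood apart from its group. ES-astrocyte control replicate A was the lowest of 4 for 8 of the 10 identity genes, and their sum was 671 CPM in it against 2677 to 3382 CPM in the other 3. Its radial glia list was also the lowest, at 919 CPM against 2600.2 to 5113 CPM, while its fibroblast and mesenchyme list was the highest of the 4, at 1396 CPM. The part of this library in the results was followed by leaving it out. Among stimulated ES-astrocytes, IL-1α + TNF-α replicate B was lowest of its group for 8 of the 10 genes and C1Q + C5 replicate D for 7, so that replicates of 1 condition differed widely.

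Levels of different genes were compared per kilobase of merged exons. In control ES-astrocytes Fabp7 led with 1418 ± 671 CPM per kb (SD, n = 4), above the next gene in 4 of 4 libraries. The next gene, Sox9, was at 20.1 ± 13.7 CPM per kb, level with Cd44 at 19.8 ± 18.5. Nfia (11.5 ± 8.09), Clu (9.15 ± 3.57), Gja1 (8.95 ± 7.09), Slc1a2 (6.41 ± 3.38), Slc1a3 (5.47 ± 3.65) and Nfib (3.93 ± 4.29 CPM per kb) followed, and Fgfr3 was the lowest at 1.72 ± 1.67. Among these lower 9 genes, no neighbours in the order differed beyond their spread. The order in control ES-motor neurons was another one, led by Sox9 at 70.0 ± 39.4 CPM per kb, above Fabp7 at 15.6 ± 8.82 in 4 of 4 libraries. Nfia (8.25 ± 7.23) and Nfib (2.55 ± 1.65 CPM per kb) came next, and the transporters, receptors, Clu and Gja1 lay at 1.32 CPM per kb or lower. Over all treatments, Fabp7 was the highest of the 10 in 20 of 20 ES-astrocyte libraries, and Sox9 was above Fabp7 in 18 of 20 ES-motor neuron libraries.

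**Figure D2:**
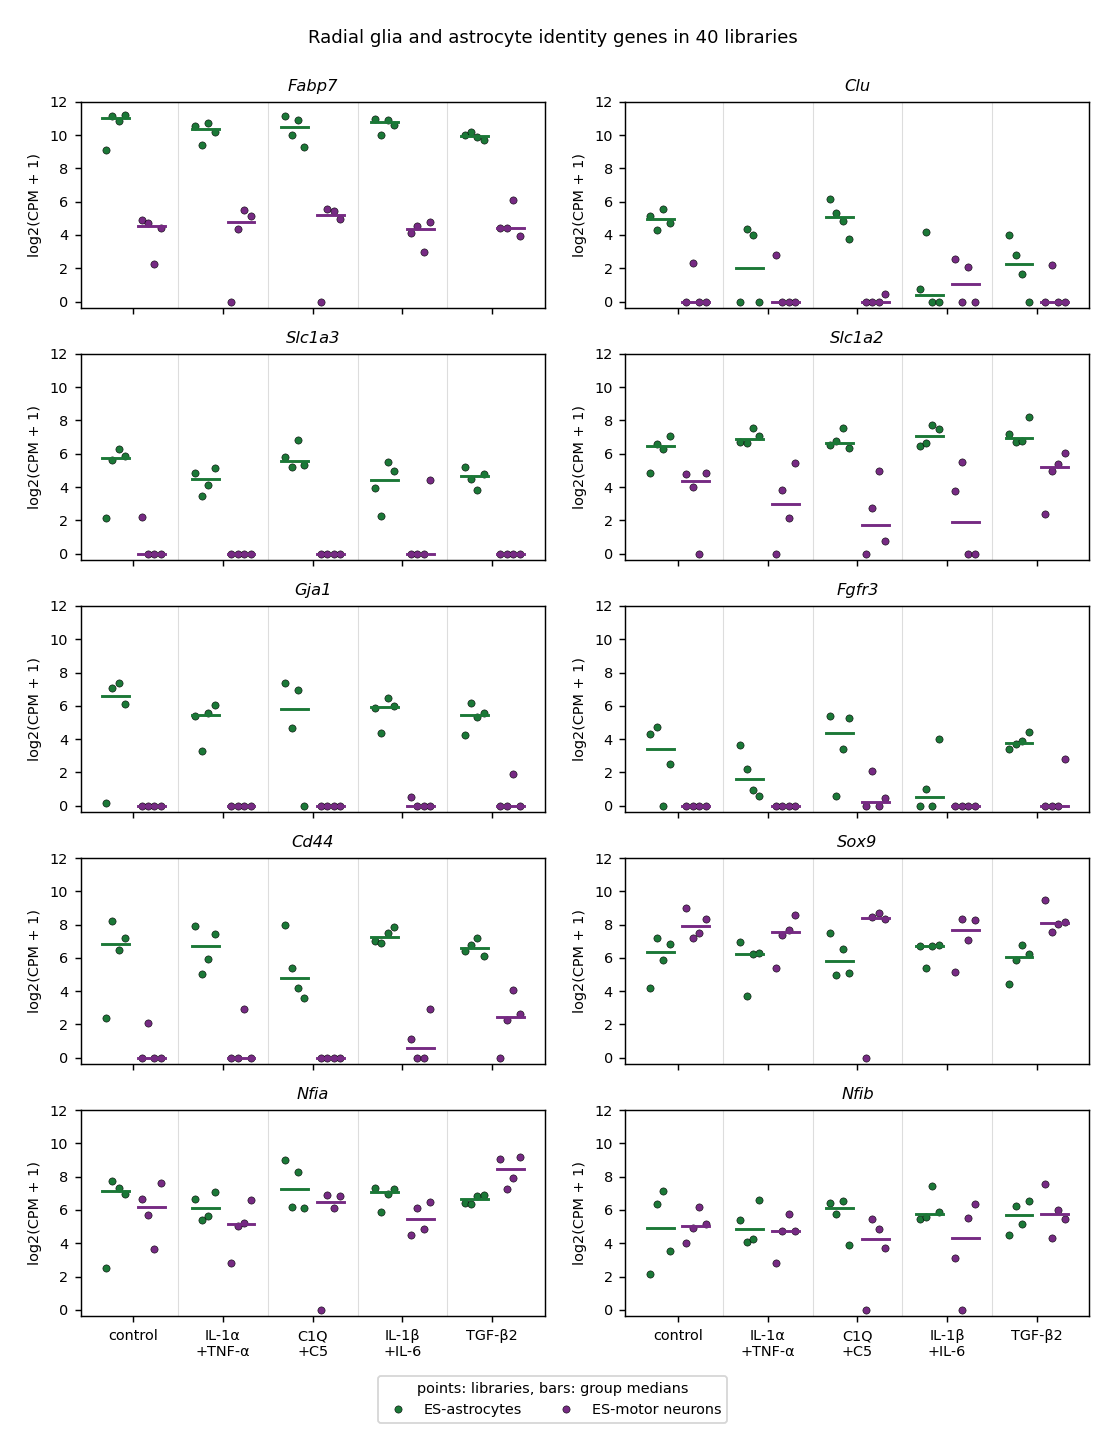
CPM of the 10 genes in all 40 libraries on a log2(CPM + 1) axis by treatment, green for ES-astrocytes and purple for ES-motor neurons, with a point per library and a bar at each group median. Fabp7 lies apart between the cell types in every treatment, at 558 CPM or more in ES-astrocytes, against 66.6 CPM or less in ES-motor neurons.

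The comparison of the unstimulated cell types asked which identity genes separate ES-astrocytes from ES-motor neurons at baseline. Fabp7, the brain lipid-binding protein, and Cd44, a hyaluronan receptor, were lower in ES-motor neurons by the edgeR quasi-likelihood test (p adjusted by Benjamini and Hochberg no higher than 0.05, log2 fold change beyond 1 in size). Of 10199 genes tested 228 were called (2.24%), 170 of them lower in ES-motor neurons (1.67%) and 58 higher (0.569%). Of the 10 identity genes 8 passed the filter on low counts, and 2 of the 8 were called, both lower, with 0 called higher. DESeq2 called 7 of the 10, all lower (all but Sox9, Nfia and Nfib), and 768 of 21637 genes in all, and by edgeR 6 of the 8 and 1084 of the 10199 had an unadjusted p under 0.05. The median log2 fold change, ES-motor neurons minus ES-astrocytes, was -3.32 over the 8 and -0.20 over all genes tested. The median of the identity genes was -5.03 by DESeq2, over 10 genes. With 1 library left out it ran from -5.79 (ES-motor neuron control replicate B, 10 genes) to -3.12 (ES-astrocyte control replicate D, 8 genes). Among all genes tested, 6.25% had every ES-motor neuron library below every ES-astrocyte library and 4.46% the opposite. Of the 8 tested identity genes, Fabp7, Clu and, with zeros taken at face value, Cd44 lay apart in the first way and Sox9 in the second. The count of all genes called depended on every single library, from 72 without ES-motor neuron control replicate B to 401 without ES-astrocyte control replicate A. It was 101, 81 and 86 without ES-motor neuron control replicates A, C and D, and 125, 132 and 134 without ES-astrocyte control replicates B, C and D.

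Fabp7 (ENSMUSG00000019874, chr10:57784881-57788450, plus strand) was at 558, 2315, 1869.5 and 2348 CPM in control ES-astrocytes A to D and at 28.9, 24.9, 3.84 and 20.5 CPM in control ES-motor neurons. All 4 ES-astrocyte libraries were far above all 4 ES-motor neuron libraries, with ES-astrocyte replicate A the lowest of its group. The log2 fold change was -6.39 ± 0.68 (SE, edgeR adjusted p = 0.00109), lower in 4 of 4 ES-motor neuron libraries, and summed counts gave 69.9 times as much in ES-astrocytes. The gene was called in all 14 alternative settings, with adjusted p-values between 2.40e-25 and 0.0213. Replicate C of the ES-motor neurons rested on 1 count of Fabp7, and 86.5% of the group's 565 counts came from replicate B.

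Clu (ENSMUSG00000022037, chr14:65968483-65981547, plus strand), clusterin, a secreted chaperone that astrocytes release, was at 34.8, 18.9, 47.0 and 25.1 CPM in control ES-astrocytes. In control ES-motor neurons it was at 0, 3.98, 0 and 0 CPM. The groups did not overlap, and replicate B, the deepest ES-motor neuron library, was the 1 in which Clu was seen. The log2 fold change of -4.45 ± 1.36 did not pass the edgeR test (adjusted p = 0.160), and DESeq2 called it (-4.47, adjusted p = 0.00772, range 0.00772 to 0.365 over its alternatives).

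The glutamate transporters clear synaptic glutamate in the nervous system, Slc1a3 (GLAST) from the radial glial stage onward and Slc1a2 (GLT-1) with astrocyte maturation. Slc1a3 (ENSMUSG00000005360, chr15:8634124-8710764, minus strand) was at 3.41, 48.3, 76.9 and 58.1 CPM in control ES-astrocytes and at 3.61, 0, 0 and 0 CPM in control ES-motor neurons. The groups overlapped through ES-astrocyte replicate A and ES-motor neuron replicate A, the latter with 4 counts. Its log2 fold change of -5.92 ± 1.74 was not called (edgeR adjusted p = 0.136), but it was without ES-astrocyte control replicate A (adjusted p = 0.0375, within a range of 0.00788 to 0.400 over its alternatives). Slc1a2 (ENSMUSG00000005089, chr2:102658659-102790784, plus strand) was at 27.6, 96.8, 78.3 and 134 CPM in control ES-astrocytes and at 26.2, 14.8, 0 and 28.1 CPM in control ES-motor neurons. Replicate A of the ES-astrocytes again lay within the ES-motor neuron range, and ES-motor neuron replicate D was just above it. The log2 fold change of Slc1a2 was -2.19 ± 0.77, not called (edgeR adjusted p = 0.262) but called by DESeq2 (-2.18, adjusted p = 0.0398, range 0.0398 to 0.523 over its alternatives).

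Gja1 (ENSMUSG00000050953, chr10:56377330-56402513, plus strand) encodes connexin 43, the main gap junction protein of astrocytes. It was at 0.107, 136, 162 and 68.9 CPM in control ES-astrocytes and at 0 in all 4 control ES-motor neuron libraries. ES-astrocyte replicate A held a single read, below the floors of 0.153 to 11.5 CPM of the ES-motor neuron libraries, so overlap cannot be judged for it, while the other 3 ES-astrocyte libraries were above all of these floors. Summed over the groups, Gja1 was at least 624-fold higher in ES-astrocytes, taking 3 counts in the 4 neuronal libraries together as the floor. The filter on low counts removed Gja1, and an exact two-sided permutation test of the 4 against 4 CPM values gave p = 0.0286, which rests on that 1 read ranking above the zeros. Without ES-astrocyte control replicate A the gene entered the fit and was called (edgeR adjusted p = 0.000521, with a range of 2.54e-06 to 0.171 over the settings in which it was fitted).

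Fgfr3 (ENSMUSG00000054252, chr5:33721674-33737068, plus strand), a fibroblast growth factor receptor of the gliogenic ventricular zone and of astrocytes, was at 18.4, 25.9, 0 and 4.79 CPM in control ES-astrocytes and at 0 in the 4 control ES-motor neuron libraries. ES-astrocyte replicate C was at 0 as well, so the groups shared that value. The gene was removed by the filter, its summed level was at least 129-fold higher in ES-astrocytes, and the exact two-sided permutation test gave p = 0.143. Both of these bounds rest on the depth of ES-motor neuron control replicate B, which had 19717324 counts.

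Cd44 (ENSMUSG00000005087, chr2:102811141-102901665, minus strand), a receptor of astrocyte-restricted precursors that mesenchymal cells also carry, was at 4.26, 302, 88.1 and 143 CPM in control ES-astrocytes. In control ES-motor neurons it was at 0, 3.32, 0 and 0 CPM. Replicate A of the ES-astrocytes was barely above replicate B of the ES-motor neurons and below the floor of 11.5 CPM of the shallow replicate C, so a lack of overlap is not established for it. The log2 fold change of -6.46 ± 1.36 was called (edgeR adjusted p = 0.0321), with a range of 6.34e-05 to 0.141 over its alternatives. The call was lost when any library but ES-astrocyte control replicate A was left out, with adjusted p-values of 0.0867, 0.0614 and 0.0625 without ES-astrocyte replicates B, C and D and 0.117, 0.0668, 0.141 and 0.116 without ES-motor neuron replicates A to D. Without ES-astrocyte replicate A it was 0.00212, and 4 of the 9 identity genes then tested were called, namely Fabp7, Cd44, Gja1 and Slc1a3, beside 401 of 9926 genes in all.

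Like Cd44, the summed markers of fibroblasts or mesenchyme were lower in control ES-motor neurons than in control ES-astrocytes. Of the 12 genes 4 passed the filter between the control groups and 3 were called lower in ES-motor neurons (Dcn, Acta2 and Tagln), with a median log2 fold change of -7.69. Their summed level was 952 ± 446 CPM in control ES-astrocytes and 2.31 ± 3.11 CPM in control ES-motor neurons. Acta2, smooth muscle actin, was the most abundant, at 423 CPM on average in control ES-astrocytes. Dcn, the proteoglycan decorin, had 11655 counts in control ES-astrocytes and 0 in control ES-motor neurons, at least 3083-fold higher. Pdgfra and Postn were at 0 counts in both control groups, and the other 10 genes of the list had counts in control ES-astrocytes. Sums by replicate in control ES-astrocytes A to D were 1396, 1223, 781 and 407 CPM, an order that Cd44 did not follow. The part of such cells in the level of Cd44 was not tested.

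Among the transcription factors of gliogenesis, Sox9 was the identity gene with a fold change in the other direction. Sox9 (ENSMUSG00000000567, chr11:112782224-112787760, plus strand), which keeps progenitors competent to form glia, was at 16.9, 143, 58.3 and 115 CPM in control ES-astrocytes and at 502, 145, 181 and 329 CPM in control ES-motor neurons. Every ES-motor neuron library was above every ES-astrocyte library, by a narrow margin between the replicates B. The log2 fold change of 1.81 ± 0.62 was not called (edgeR adjusted p = 0.243), and it was called under none of its 14 settings in this comparison, edgeR and DESeq2 fits included (lowest adjusted p 0.0834).

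Nfia (ENSMUSG00000028565, chr4:97772734-98118874, plus strand) and Nfib (ENSMUSG00000008575, chr4:82290173-82705750, minus strand) bind the same short DNA element and drive the onset of gliogenesis. Nfia was at 4.69, 213, 158 and 126 CPM in control ES-astrocytes and at 102, 51.7, 11.5 and 194 CPM in control ES-motor neurons. Nfib was at 3.41, 82.3, 139 and 10.4 CPM in the former and at 15.4, 28.9, 73.0 and 35.3 CPM in the latter. For both genes the groups overlapped, with ES-astrocyte replicate A at the bottom. The log2 fold changes were -0.42 ± 0.91 for Nfia and -0.59 ± 0.97 for Nfib, neither called (edgeR adjusted p = 0.951 and 0.921). Their signs turned when 1 library was left out, to 0.0079 for Nfia without ES-astrocyte control replicate B and to 0.25 for Nfib without ES-astrocyte control replicate C.

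The 32 libraries of stimulated cultures, none of which was in the comparison of the controls, gave a second comparison of the cell types, with 16 libraries in each and the stimulus as a term. Of the 10 identity genes, all tested here, 7 were called, a share to be read against the 1536 of 12507 genes called in all (12.3%). Fabp7, Slc1a3, Slc1a2, Gja1, Fgfr3 and Cd44 were lower in ES-motor neurons, in which direction 8.81% of all genes were called, and Sox9 was higher, as were 3.47%. The median log2 fold change was -3.69 over the 10 genes and -0.11 over all genes tested. Scaling by median ratios moved the median of all genes to -0.23 and left the same 7 called. DESeq2 called 7 as well (1490 of 27250 genes in all), and each of the 4 fits without 1 replicate letter called 7 (1519 of 12580, 1112 of 12488, 1244 of 12888 and 1340 of 12773 genes without A to D). Within a single stimulus, and so within 1 plate index, 4 of 8 tested were called with IL-1α + TNF-α (233 of 8249 genes in all), 5 of 8 with C1Q + C5 (258 of 8201), 3 of 8 with IL-1β + IL-6 (202 of 9520) and 6 of 9 with TGF-β2 (361 of 9959). Fabp7 and Cd44 were among them each time. These fits of single stimuli were not planned beforehand.

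Fabp7 ranged from 613 to 2280.5 CPM (median 1158) in the 16 stimulated ES-astrocyte libraries and from 0 to 66.6 CPM (median 21.6) in the 16 ES-motor neuron libraries. Slc1a2 ranged from 81.6 to 295 CPM (median 109) in the former and from 0 to 64.2 CPM (median 9.08) in the latter. With zeros taken at face value, these were the 2 identity genes whose groups did not overlap, against 0.888% of all genes tested in this direction and 0.128% in the other, in which none of the 10 lay. For Slc1a2 this includes the 0 of C1Q + C5 replicate A, whose floor of 202 CPM was above most ES-astrocyte values, so that library cannot be placed. The log2 fold changes were -5.55 ± 0.31 for Fabp7 (edgeR adjusted p = 1.01e-17) and -3.07 ± 0.47 for Slc1a2 (adjusted p = 3.13e-06). Slc1a2 was not called with IL-1β + IL-6 or TGF-β2 alone (edgeR adjusted p = 0.127 and 0.0609, range 5.67e-11 to 0.127 over its alternatives).

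Slc1a3 was found in 16 of 16 stimulated ES-astrocyte libraries, at 3.82 to 115 CPM (median 28.6), and in 1 of 16 ES-motor neuron libraries. That library, IL-1β + IL-6 replicate D, held 3 counts, or 20.0 CPM at its low depth, and overlapped the ES-astrocyte range. Summed counts were 422 times as high in ES-astrocytes (95% Clopper-Pearson interval 144 to 2050) and the log2 fold change was -7.27 ± 1.02 (edgeR adjusted p = 5.55e-07). The call on Slc1a3 was lost with IL-1α + TNF-α alone (adjusted p = 0.0829) and with IL-1β + IL-6 alone (-2.75, adjusted p = 0.858), within a range of 2.11e-14 to 0.858 over its 14 alternatives. Gja1 was found in 15 of 16 stimulated ES-astrocyte libraries, at 0 to 165 CPM (median 45.9), and in 2 of 16 ES-motor neuron libraries, at up to 2.80 CPM. The connexin was missing from ES-astrocyte C1Q + C5 replicate D, a library of 5056889 counts, which alone made the groups overlap at 0. Its log2 fold change was -7.48 ± 0.84 (edgeR adjusted p = 3.48e-09).

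Of the receptors, Cd44 was at 11.1 to 254 CPM (median 113) in stimulated ES-astrocytes and at 0 to 16.1 CPM (median 0) in ES-motor neurons. With zeros taken at face value, the ranges met only at their edges. The floor reached 202 CPM among C1Q + C5 and 33.8 CPM among IL-1β + IL-6 ES-motor neuron libraries, above the lowest ES-astrocyte value. Shallow libraries at 0 therefore cannot be placed. The log2 fold change of Cd44 was -5.84 ± 0.63 (edgeR adjusted p = 1.61e-09). Fgfr3 was at 0 to 41.7 CPM (median 9.55) in stimulated ES-astrocytes, 14 of 16 libraries holding it, and at 0 to 5.99 CPM (median 0) in ES-motor neurons, 3 of 16 holding it. Low values were common in both cell types, and the log2 fold change was -4.31 ± 1.10 (edgeR adjusted p = 0.00397, range 0.00142 to 0.513 over its alternatives). The call on Fgfr3 was lost with TGF-β2 alone (adjusted p = 0.513) and without the shallow libraries and the IL-1α + TNF-α group (adjusted p = 0.0750), an alternative chosen after seeing the data.

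Sox9 was at 11.9 to 177 CPM (median 76.6) in the 16 stimulated ES-astrocyte libraries and at 0 to 707 CPM (median 273) in the 16 ES-motor neuron libraries. The ranges overlapped, with a single ES-motor neuron library at 0, the one of 6557 counts. The log2 fold change was 1.82 ± 0.34 (edgeR adjusted p = 0.000119), so this gliogenic factor was higher in the neurons' libraries. Over the alternatives of this comparison, fits of single stimuli among them, the adjusted p of Sox9 ranged from 1.24e-06 to 0.628. Of the 4 single stimuli, Sox9 was called by edgeR with TGF-β2 (adjusted p = 0.0151) and not with the other 3. Clu was at 0 to 71.3 CPM (median 9.23) in ES-astrocytes and at 0 to 5.90 CPM (median 0) in ES-motor neurons, and its log2 fold change of -2.61 ± 1.08 was not called (edgeR adjusted p = 0.107). It was called with C1Q + C5 alone (-7.46, adjusted p = 0.00406) and in a single fit of all 40 libraries (-3.32, adjusted p = 0.0156), within a range of 0.00406 to 0.557 over its alternatives. Nfia (-0.43 ± 0.40) and Nfib (-0.56 ± 0.41) were not called either (edgeR adjusted p = 0.609 and 0.463), and their ranges overlapped widely. With TGF-β2 alone Nfia was called the other way, higher in ES-motor neurons (1.97, edgeR adjusted p = 0.0194, range 0.0194 to 0.898 over the alternatives of this comparison).

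**Figure D3:**
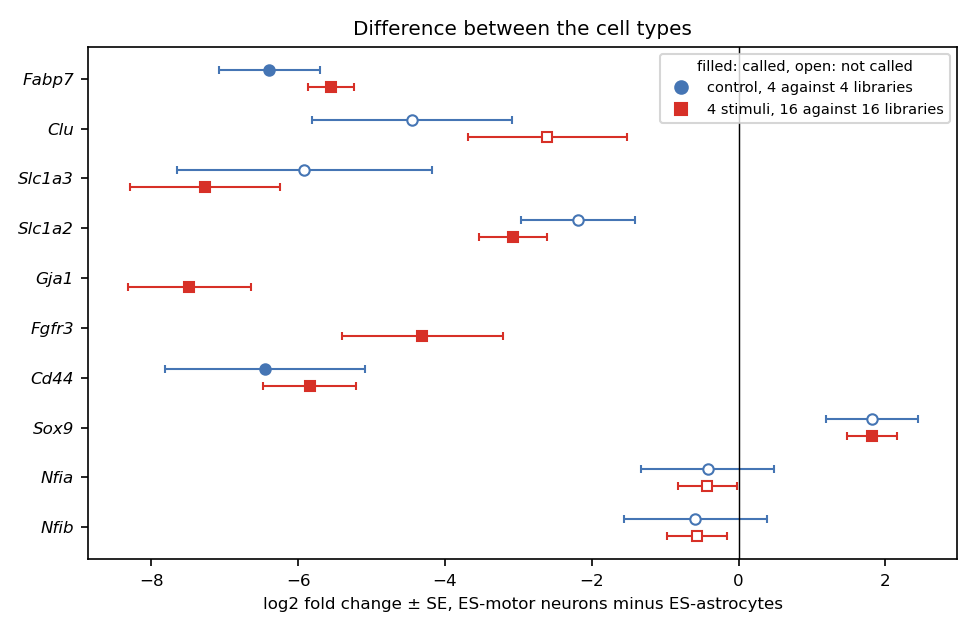
Log2 fold change ± SE of each gene, ES-motor neurons minus ES-astrocytes, in control libraries (blue, 4 against 4) and in stimulated libraries (red, 16 against 16), filled where called. Gja1 and Fgfr3 have no control value because the filter on low counts removed them, and Sox9 is the gene to the right of 0, at 1.81 and 1.82.

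Other genes of the radial glial programme were read in the same comparisons. Of the 18 radial glia and progenitor markers 14 were tested between the control groups, with 3 called lower in ES-motor neurons (Ednrb, Gli3 and Notch2), 0 called higher by edgeR and a median log2 fold change of -3.34. In stimulated cultures 17 were tested, 14 were called lower and 0 higher, with a median of -3.57. Ednrb, the endothelin receptor of glial progenitors, had 20755 counts in control ES-astrocytes and 2 in control ES-motor neurons (edgeR adjusted p = 0.00318). The Notch receptors, which keep radial glia undifferentiated, were lower in stimulated ES-motor neurons, at -6.05 ± 0.60 for Notch1 and -5.81 ± 0.48 for Notch2 on the log2 scale (edgeR adjusted p = 1.48e-10 and 1.50e-12). Vim, an intermediate filament of radial glia and the most abundant gene of the list in control ES-motor neurons, was not called, at 0.06 ± 0.37 between the controls (edgeR adjusted p = 0.986). Cdh2, the adhesion protein N-cadherin, had a positive fold change in both comparisons and was not called in either (1.00 ± 0.78 and 0.57 ± 0.35, edgeR adjusted p = 0.769 and 0.352).

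Of 15 other gliogenic transcription factors 6 were tested between the controls and 0 were called by edgeR in either direction, with a median of 0.10. In stimulated cultures 10 were tested and 4 were called lower in ES-motor neurons (Rfx4, Nfix, Id3 and Etv5), with a median of -1.68. Rfx4, a regulator of the ventral neural tube and of astrocytes, was lower, at -7.98 ± 0.74 on the log2 scale (edgeR adjusted p = 2.37e-11). Nfix, the relative of Nfia and Nfib, had 327 counts in stimulated ES-astrocytes and 0 in ES-motor neurons, at least 51.6-fold higher. Id3, a target of bone morphogenetic protein signals, was lower, at -1.32 ± 0.38 (edgeR adjusted p = 0.0115). Hopx was at 0 counts in all 40 libraries. Of the maturing and mature astrocyte list 2 genes were tested between the controls and 3 in stimulated cultures, and 0 were called by edgeR in either, with medians of -0.47 and -0.12. Glul, for instance, had a log2 fold change of -0.72 ± 0.57 between the controls (edgeR adjusted p = 0.772). The oligodendrocyte list (10 genes) had 4 and 5 tested, with 1 call, Nkx2-2, a factor of ventral progenitors and of oligodendrocyte precursors, lower in stimulated ES-motor neurons by at least 79.9-fold, and medians of -0.30 and 0.82.

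Neuronal lists lay on the opposite side. Of 14 neuronal markers, all tested, 4 were called higher in control ES-motor neurons (Gap43, Ina, Nefl and Nefm) and 6 in stimulated ones, with medians of 1.44 and 0.99 and none lower. Nefl, the light neurofilament chain, was higher by 3.89 ± 0.41 between the controls (edgeR adjusted p = 0.000863). Of 12 motor neuron markers 11 were tested between the controls and 5 were called higher, led by Slit2, Slc5a7 and Isl1, with a median of 3.75, and in stimulated cultures 9 of 12 were higher and 1, Onecut1, lower, with a median of 3.98. The choline transporter gene Slc5a7 was at 0 counts in control ES-astrocytes and at least 250-fold higher in control ES-motor neurons. In stimulated cultures 6 of the 12 fibroblast and mesenchyme markers were tested and all 6 were lower in ES-motor neurons, with a median of -6.94. Of the microglial list Csf1r was the single gene tested, in stimulated cultures, at 1.10 ± 0.98 and not called (edgeR adjusted p = 0.581), and none of the endothelial, ependymal or pluripotent markers passed the filter.

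The 4 comparisons of stimulated with control ES-astrocytes asked whether inflammatory signals alter glial identity genes. They share the 4 control libraries, so they are not independent of each other. By edgeR 0 of the 10 identity genes were called in any of them, against 0% of all genes in each of the 4. With IL-1α + TNF-α 10444 genes were tested and 0 were called, 93 having an unadjusted p under 0.05 and 25 being called by DESeq2. The counts were 10865 tested, 0 called, 106 and 40 with C1Q + C5, 10240, 0, 119 and 56 with IL-1β + IL-6, and 10794, 0, 136 and 58 with TGF-β2. Of the identity genes 0 had an unadjusted p under 0.05 in these fits, and 0 were called by DESeq2. Their median log2 fold changes, stimulus minus control, were -0.51, 0.18, -0.050 and -0.32 in the same order, beside -0.079, -0.069, -0.074 and -0.065 over all genes tested. Without ES-astrocyte control replicate A these medians of the identity genes were -0.88, -0.14, -0.40 and -0.72, and 3 of the 10 had an unadjusted p under 0.05 with IL-1α + TNF-α (434 of 10250 genes in all) and 3 with TGF-β2 (634 of 11077), 0 being called by edgeR. Other single libraries moved the medians as well, to between -1.05 (without IL-1α + TNF-α replicate D) and -0.26 (without control replicate B) for IL-1α + TNF-α, and to between -0.17 (without C1Q + C5 replicate A) and 0.48 (without control replicate C) for C1Q + C5. Without control replicate B they were 0.21 for IL-1β + IL-6 and 0.093 for TGF-β2, so the sign of the median rested on single libraries for every stimulus but IL-1α + TNF-α. The spread between replicates was wide in the control group, and smaller changes than that spread could not be seen by these tests.

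Fabp7 stayed the most abundant per kb under each stimulus. It was at 1485, 674, 1705 and 1174 CPM with IL-1α + TNF-α, at 2280.5, 1017, 1955 and 613 CPM with C1Q + C5, at 2023, 1010.2, 1936 and 1590.4 CPM with IL-1β + IL-6, and at 1031, 1142, 939 and 846 CPM with TGF-β2. Every stimulated group lay within the control range of 558 to 2348 CPM. The TGF-β2 group was the tightest, and its 4 libraries were below 3 of the 4 control libraries but above replicate A.

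Clu was the identity gene whose stimulated values came apart from control. With IL-1β + IL-6 it was at 0.680, 17.1, 0 and 0 CPM and with TGF-β2 at 14.9, 6.01, 2.16 and 0 CPM, in both cases below the lowest control value of 18.9 CPM. With IL-1α + TNF-α it was at 0, 19.4, 14.7 and 0 CPM and with C1Q + C5 at 71.3, 38.8, 27.8 and 12.4 CPM, and both of these groups overlapped control. So 1 of the 10 genes lay wholly below control with IL-1β + IL-6, where 0.957% of all genes tested did, and 1 with TGF-β2, where 0.973% did, and none lay wholly above, as 0.879% and 1.33% of all genes did. With IL-1α + TNF-α (0.948% below, 0.929% above) and C1Q + C5 (0.994% below, 0.930% above) none of the 10 lay apart from control. Clu was not called with any stimulus (edgeR adjusted p of at least 0.9999), and plate and stimulus cannot be told apart in the 2 groups that did not overlap.

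The glutamate transporters showed ranges that overlapped control throughout. Slc1a2 was at 105, 99.8, 187 and 135 CPM with IL-1α + TNF-α, at 90.1, 109, 189 and 81.6 CPM with C1Q + C5, at 88.8, 97.2, 208 and 179 CPM with IL-1β + IL-6 and at 142, 104, 109.6 and 295 CPM with TGF-β2, against a control range of 27.6 to 134 CPM. The highest value of each stimulated group was above the control range, and control replicate A was below all stimulated libraries. Slc1a3 was at 9.88 to 34.0 CPM with IL-1α + TNF-α, 35.5 to 115 CPM with C1Q + C5, 3.82 to 44.0 CPM with IL-1β + IL-6 and 13.3 to 36.5 CPM with TGF-β2, against 3.41 to 76.9 CPM in control. Gja1 ranged over 8.57 to 65.6, 0 to 165, 19.5 to 89.1 and 17.7 to 71.3 CPM in the same order and over 0.107 to 162 CPM in control. For connexin 43, control held both the lowest but 1 and nearly the highest value of all ES-astrocyte groups.

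Receptors and transcription factors likewise overlapped control under all 4 stimuli. Cd44 was at 118 to 227 CPM with IL-1β + IL-6, 31.3 to 239 CPM with IL-1α + TNF-α, 69.3 to 148 CPM with TGF-β2 and 11.1 to 254 CPM with C1Q + C5, where replicate A alone was above 40.3 CPM. Fgfr3 was at 0 in 2 of 4 libraries with IL-1β + IL-6 and was found in 4 of 4 with each of the other stimuli, at up to 41.7 CPM. Sox9 ranged from 11.9 to 122 CPM with IL-1α + TNF-α, from 30.0 to 177 CPM with C1Q + C5, from 41.7 to 111 CPM with IL-1β + IL-6 and from 20.8 to 108 CPM with TGF-β2. Control Sox9, at 16.9 to 143 CPM, covered most of these ranges. Nfia reached 508 and 308 CPM in C1Q + C5 replicates A and C, above the control maximum of 213 CPM, while replicates B and D of that group were at 72.5 and 68.1 CPM. Nfib stayed between 13.8 and 169 CPM in all 16 stimulated libraries.

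In ES-motor neurons the stimuli were compared in libraries of much lower depth. The 4 comparisons again share their control libraries, and none of the identity genes was called in any of the main edgeR fits. With IL-1α + TNF-α 4479 genes were tested and 0 were called (0%), with 143 at an unadjusted p under 0.05 and 1 called by DESeq2, and 3 identity genes passed the filter. With C1Q + C5 7348 genes were tested and 0 were called (0%), with 322 and 0 by the same measures, and with IL-1β + IL-6 8327 were tested and 0 were called (0%), with 98 and 1. In each of these, 5 identity genes were tested. Without ES-motor neuron control replicate D, 2 genes were called in the C1Q + C5 comparison, neither of them an identity gene. The median log2 fold changes of the identity genes tested were -0.37, 0.026 and -0.52, beside 0.029, -0.062 and -0.014 over all genes. Leaving out 1 ES-motor neuron library moved them to between -0.92 (without control replicate B) and 0.0017 (without IL-1α + TNF-α replicate A), between -0.19 (without control replicate B) and 0.21 (without control replicate D), and between -0.94 (without IL-1β + IL-6 replicate B) and -0.25 (without IL-1β + IL-6 replicate A), in the same order. With IL-1α + TNF-α these medians are over different genes, as 3 passed the filter with all libraries, 2 without control replicate B and 5 without IL-1α + TNF-α replicate A. Without the shallow libraries the median with IL-1β + IL-6 was -1.53, over 6 genes. For the genes removed by the filter, exact two-sided permutation tests of CPM gave p between 0.657 and 1 for 7 genes with IL-1α + TNF-α, 0.429 and 1 for 5 with C1Q + C5, 0.714 and 1 for 5 with IL-1β + IL-6, and 0.143 and 1 for 5 with TGF-β2.

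With TGF-β2 in ES-motor neurons, Nfia was the 1 of 5 identity genes tested that had an unadjusted p under 0.05 by edgeR. Of 7947 genes 1 was called (0.0126%), with 221 at an unadjusted p under 0.05 and 17 called by DESeq2, and 0 of the identity genes were called, of 5 tested by edgeR and 10 by DESeq2. The gene called, chosen here after its values were seen, was Hoxa5, a regulator of position along the body axis, at 273, 110.1, 119.9 and 233 CPM against 20.8, 19.03, 19.2 and 28.6 CPM in control (log2 fold change 3.05, edgeR adjusted p = 0.0103). That count became 0 without ES-motor neuron control replicate C or TGF-β2 replicates A or D, and 2 without control replicates A, B or D. The identity genes tested had a median log2 fold change of 0.97, beside -0.0042 over all genes. Nfia was at 529, 152, 238 and 582 CPM on TGF-β2 stimulated cultures and at 102, 51.7, 11.5 and 194 CPM on control cultures. The groups overlapped through TGF-β2 replicate B and control replicate D, the other 3 TGF-β2 libraries being above all of control. Its log2 fold change of 2.03 ± 0.56 had an unadjusted p of 0.00173 by the edgeR fit across 7947 genes and did not pass the correction (adjusted p = 0.777). Nfia was called with a replicate block, an alternative only, as the labels did not say that the letters pair the cultures. That fit is given with the processing. In ES-astrocytes the same stimulus left Nfia at 84.7, 80.3, 115 and 120.1 CPM, within the control range of 4.69 to 213 CPM, and the difference between the cell types in this response was not tested. Replicate A of the TGF-β2 ES-motor neurons was shallow, at 283205 counts, as was control replicate C, at 240859.

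Sox9 in ES-motor neurons was at 41.3, 168, 204 and 389 CPM with IL-1α + TNF-α, at 0, 355, 416 and 321 CPM with C1Q + C5, at 34.1, 327, 137 and 314 CPM with IL-1β + IL-6 and at 707, 189, 266 and 279 CPM with TGF-β2. These values overlapped the control range of 145 to 502 CPM in each group. Fabp7 was present at 0 to 43.5, 0 to 45.3, 6.97 to 26.7 and 14.5 to 66.6 CPM in the same order, against 3.84 to 28.9 CPM in control. Both zeros came from shallow libraries, IL-1α + TNF-α replicate A with 117344 counts and C1Q + C5 replicate A with 6557. Slc1a3, Gja1 and Fgfr3 together were found in few ES-motor neuron libraries, 2, 2 and 3 of 20, and with 7, 11 and 12 counts in all.

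The identity genes share little in position. Slc1a2 and Cd44 are neighbours on chromosome 2, 20.36 kb apart with 0 protein-coding genes between them, with Slc1a2 on the plus and Cd44 on the minus strand so that their 3' ends face each other. Gja1 and Fabp7 lie 1382 kb apart on chromosome 10 with 3 protein-coding genes between, and Nfib and Nfia are on chromosome 4 with 83 between. All coordinates are of GRCm38 in the GENCODE M21 annotation. Exons of Slc1a2, Fgfr3 and Nfia overlap genes of the opposite strand (Gm13872, G630022F23Rik and E130114P18Rik), which had 35, 3 and 185 counts over all libraries against 15273, 1327 and 18353 for the identity genes. As no use of strand was stated, reads of such pairs cannot be told apart.

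A RefSeq promoter (GRCm38.p6) was matched for 7 of the 10, not for Clu, Sox9 and Nfib. In the 250 bases before the RefSeq start, 5 short motifs were searched on both strands: the nuclear factor I element TTGGCA, the SOX core ACAAT, the RBPJ core TGGGAA, the AP-1 element TGANTCA and the TATA box TATAAA. They occurred in 12.28%, 27.66%, 21.59%, 6.749% and 12.37% of 32851 promoters. Of the 7 identity genes 0 held the nuclear factor I element, 3 held the SOX core (Fabp7, Slc1a3 and Nfia, whose RefSeq promoter at chr4:97581693-97581942 lies far before the annotated start of the gene), 2 the RBPJ core (Fabp7 and Cd44), 1 AP-1 (Gja1) and 1 the TATA box (Slc1a3). A match describes letters in this window and says nothing of binding. The sequence shown for Fabp7 holds 208 bases rather than 250. The promoters of Fabp7, Cd44 and Gja1 are shown, with motif matches in capitals: the RBPJ and SOX cores in Fabp7 (chr10:57784673-57784880, plus strand, ending before the annotated gene), 2 RBPJ cores in Cd44 (chr2:102901666-102901915, minus strand) and AP-1 in Gja1 (chr10:56377050-56377299, plus strand).
Fabp7: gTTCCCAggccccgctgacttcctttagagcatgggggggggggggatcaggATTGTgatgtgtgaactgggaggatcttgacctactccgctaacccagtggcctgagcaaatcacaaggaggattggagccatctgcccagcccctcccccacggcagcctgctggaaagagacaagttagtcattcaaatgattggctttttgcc
Cd44: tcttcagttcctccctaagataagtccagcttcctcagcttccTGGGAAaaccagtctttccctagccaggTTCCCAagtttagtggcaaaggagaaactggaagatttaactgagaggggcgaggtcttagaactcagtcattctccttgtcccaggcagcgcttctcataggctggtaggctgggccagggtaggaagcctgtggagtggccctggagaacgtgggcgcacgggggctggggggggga
Gja1: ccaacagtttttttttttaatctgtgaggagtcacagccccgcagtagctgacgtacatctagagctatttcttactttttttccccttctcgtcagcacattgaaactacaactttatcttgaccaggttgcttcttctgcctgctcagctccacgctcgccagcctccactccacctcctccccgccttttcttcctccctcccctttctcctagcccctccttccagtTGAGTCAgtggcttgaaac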

How the data were processed

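Whole-number counts per gene in 40 libraries were deposited by the authors, who aligned polyA-primed, Tn5-fragmented reads with STAR and counted them per Ensembl gene. The aligner version, build, annotation, strand setting and counting tool were not given in the sources used here. For testing, the authors named DESeq2. Genes were named by Ensembl identifier from GENCODE M21 (GRCm38), which named 55227 of 55487, the other 260 holding 0.117% of counts. No 2 libraries held identical values.

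Groups came from the sample labels. Each comparison was fitted on its own libraries with edgeR 4.0.16 under R 4.3.3 (filterByExpr, TMM scaling, robust quasi-likelihood fits, Benjamini-Hochberg adjustment over all genes tested), and called at an adjusted p of at most 0.05 with an absolute log2 fold change above 1. For identity genes removed by the filter, exact two-sided permutation tests of CPM were run (scipy 1.17.1). CPM used TMM factors over all 40 libraries. DESeq2 1.42.0 and other scaling, filter and sample choices were alternatives.

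All 10 identity genes were named, and from each marker list the genes of smallest p that were called. For a stimulus, fold changes were given for identity genes with an unadjusted p under 0.05. Genes and lists were chosen with earlier results of these data known. A median of a list was the same with genes at 0 set to their bounds.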

Additional observations from a re-analysis of the deposited data

Results flagged for a closer look

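In 18 of 90 sets of 4 libraries with any count of an identity gene, 1 library lay far from the other 3, by the ratio of its gap to the range of the set. A rate of about 1 in 20 groups by chance alone was assumed here and not tested. It does not hold where 3 of 4 libraries are at 0, since any count in the other then sets the ratio to 1. The values are CPM.

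In ES-astrocytes, Clu was at 17.11 in IL-1β + IL-6 replicate B (others 0 to 0.68), Fgfr3 at 15.18 in IL-1β + IL-6 replicate D (others 0 to 1.006), Cd44 at 254.2 in C1Q + C5 replicate A (others 11.06 to 40.27), Sox9 at 41.67 in IL-1β + IL-6 replicate B (others 103.8 to 110.7) and Nfib at 169.4 in IL-1β + IL-6 replicate C (others 43.06 to 58.76).

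In ES-motor neurons, Fabp7 was at 66.6 in TGF-β2 replicate C (others 14.55 to 20.67) and Fgfr3 at 3.182 in C1Q + C5 replicate B (4 counts, others 0 to 0.3522). In the other sets the remaining 3 libraries were all at 0. Clu was at 3.979 in control replicate B (78 counts), 5.9 in IL-1α + TNF-α replicate A (1 count), 0.3522 in C1Q + C5 replicate D (1 count) and 3.595 in TGF-β2 replicate B (42 counts). Slc1a3 was at 3.615 in control replicate A (4 counts) and 20.04 in IL-1β + IL-6 replicate D (3 counts). Fgfr3 was at 5.989 in TGF-β2 replicate D (7 counts). Cd44 was at 3.316 in control replicate B (65 counts) and 6.694 in IL-1α + TNF-α replicate C (2 counts). Gja1 was at 0.4431 in IL-1β + IL-6 replicate A (7 counts) and 2.804 in TGF-β2 replicate C (4 counts).

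The mean of Nfia with TGF-β2 minus control was -25.33 in ES-astrocytes but 285.6 in ES-motor neurons. This difference between the cell types was not tested.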

How the results depend on the processing

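Control cell types, genes called: 228, and 768 by DESeq2, 433 from a single fit of all 40 libraries, 81 without shallow libraries, and 72 to 401 when 1 library was left out. Identity genes called: 2, and 7 by DESeq2, 4 with all 40 libraries, 1 without shallow libraries, and 1 to 4 when 1 library was left out. When 1 library was left out, the log2 fold change of Nfia ran from -1.04 (without ES-motor neuron control replicate D) to 0.0079 (without ES-astrocyte control replicate B). That of Nfib ran from -1.05 (without ES-motor neuron control replicate C) to 0.25 (without ES-astrocyte control replicate C).

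Stimulated cell types, genes called: 1536, and 233 with IL-1α + TNF-α alone, 258 with C1Q + C5 alone, 202 with IL-1β + IL-6 alone and 361 with TGF-β2 alone. The fits of single stimuli were not planned. Identity genes called: 7, and 4 with IL-1α + TNF-α alone and 3 with IL-1β + IL-6 alone. With TGF-β2 alone Nfia turned to 1.97 and was called, higher in ES-motor neurons (adjusted p = 0.0194, range 0.0194 to 0.898 over its alternatives), and Nfib turned to 0.49.

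Stimuli in ES-astrocytes, genes called: 0 in each, and by DESeq2 25 (IL-1α + TNF-α), 40 (C1Q + C5), 56 (IL-1β + IL-6) and 58 (TGF-β2). IL-1α + TNF-α gave 2 without the filter, and C1Q + C5 and IL-1β + IL-6 gave 2 each with all 40 libraries.

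Stimuli in ES-motor neurons, genes called: IL-1α + TNF-α 0, and 1 by DESeq2 and 1 without the filter. C1Q + C5 gave 0, and 0 to 2 when 1 library was left out. IL-1β + IL-6 gave 0, and 1 by DESeq2. TGF-β2 gave 1, and 17 by DESeq2, 5 without the filter, 0 without shallow libraries, and 0 to 2 when 1 library was left out.

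The labels did not say whether libraries of 1 replicate letter came from 1 culture. Correlations of same-letter deviations from the group means ran from -0.168 to 0.0814 between the control cell types. They ran from -0.136 to 0.112 between the stimulated cell types and from 0.0492 to 0.143 with TGF-β2 in ES-motor neurons. The main fits therefore treated libraries as independent, and a replicate block was an alternative only. With the block, 41 genes were called between the control cell types and Nfib turned to 0.38. With TGF-β2 in ES-motor neurons, the block gave 4 genes and 1 identity gene, Nfia (2.17, adjusted p = 0.0303, range 0.0303 to 1 over its alternatives).

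Leaving out shallow libraries could not be run for IL-1α + TNF-α in ES-motor neurons, where all 4 were shallow. For the stimulated cell types it could not be run as planned, and IL-1α + TNF-α was left out too, a choice made after seeing the data.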
